A study of Mus musculus with 25 samples.

Results

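Liver tissue of mice 12 hours after partial hepatectomy (PHx) was compared with liver tissue 4 hours after PHx, using 5 arrays at PHx 12 h and 5 arrays at PHx 4 h. These 10 arrays, of 25 in the series, were chosen by the time given in the sample labels. All mice were male Balb/c, an inbred strain, with an age of 8 weeks in the labels and a range around it in the methods. Both groups had the left lateral and median lobes of the liver removed under isoflurane, without any drug or genetic change, so the comparison holds surgery constant and sets a later hour against an earlier one. Total liver RNA was labelled with Cy3 and hybridised to the NCode Mouse Non-coding RNA Microarray, a single-colour array with probes for mRNAs and for putative long noncoding RNAs (lncRNAs). The 5 sham livers, which the labels place at 4 hours after surgery, and the livers at 36 and 72 hours entered the estimate of the spread but not the comparison. Whole liver pieces were measured, and fewer cells of a type and less RNA per cell cannot be told apart in such data.

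After PHx the remaining hepatocytes, which are normally quiescent, enter the cell cycle in near synchrony. Cytokines and growth factors first bring the cells from rest into G1, the gap phase before DNA is copied. Cyclin D with its partner kinases Cdk4 and Cdk6, and then cyclin E with Cdk2, inactivate the retinoblastoma family of pocket proteins. E2F transcription factors are thereby released and switch on the genes for DNA synthesis in S phase, and genes for mitosis follow later. The early hours are often called priming, a step defined by immediate early genes. None of those genes had a named probe here, so this name was not checked on the arrays and the 2 groups are called PHx 12 h and PHx 4 h. The circadian clock is a separate system with its own rhythm in liver, in which Arntl (Bmal1) and its partner bind a short DNA motif called the E-box and the Cry and Per proteins repress them.

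The sequences before the start of 4 genes that are described below are shown because they hold the letters of the motifs that the clock and the E2F factors use. They are the 250 bases upstream of the annotated start in RefSeq, build GRCm38.p6 of the C57BL/6J reference, given 5′ to 3′ on the strand of the gene. Capitals mark the E-box CACGTG in Cdk4 and Cry1 and an E2F-type motif, one of TTTCGCGC, TTTGGCGC and TTTCCCGC, in Cdc25a and Rbl1. The Cdk4 window lies at chr10:127063285-127063534 on the plus strand, that of Cdc25a at chr9:109875329-109875578 on the plus strand, that of Rbl1 at chr2:157204535-157204784 on the minus strand and that of Cry1 at chr10:85185055-85185304 on the minus strand.
Cdk4: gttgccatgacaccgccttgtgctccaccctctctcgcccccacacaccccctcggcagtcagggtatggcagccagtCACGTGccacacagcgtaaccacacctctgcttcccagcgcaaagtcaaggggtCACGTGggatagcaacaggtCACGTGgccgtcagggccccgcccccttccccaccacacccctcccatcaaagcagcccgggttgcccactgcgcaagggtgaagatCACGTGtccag
Cdc25a: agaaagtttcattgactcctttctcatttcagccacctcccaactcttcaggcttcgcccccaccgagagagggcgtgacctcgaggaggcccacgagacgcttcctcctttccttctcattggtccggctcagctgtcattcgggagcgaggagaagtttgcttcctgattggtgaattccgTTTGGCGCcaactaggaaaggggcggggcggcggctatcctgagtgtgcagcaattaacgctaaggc
Rbl1: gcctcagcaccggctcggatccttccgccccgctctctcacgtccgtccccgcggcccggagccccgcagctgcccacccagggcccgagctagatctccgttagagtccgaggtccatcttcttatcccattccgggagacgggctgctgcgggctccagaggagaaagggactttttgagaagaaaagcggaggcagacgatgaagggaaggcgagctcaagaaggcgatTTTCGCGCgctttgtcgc
Cry1: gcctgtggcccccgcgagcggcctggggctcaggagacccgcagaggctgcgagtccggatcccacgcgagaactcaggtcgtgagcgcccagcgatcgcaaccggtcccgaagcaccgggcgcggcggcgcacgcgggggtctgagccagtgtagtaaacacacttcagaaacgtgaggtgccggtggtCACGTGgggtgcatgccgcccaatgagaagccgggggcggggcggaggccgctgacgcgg
The Cdk4 window held 4 E-boxes, which begin 172, 118, 98 and 11 bases before the start, and the Cry1 window held 1 that begins 60 bases before it. The E2F-type motif begins 67 bases before the start in Cdc25a and 18 bases before it in Rbl1. Both strands were searched, and the motifs of the 2 kinds do not overlap in these windows. Among 32851 RefSeq promoter windows of the same length, 6.02% held an E-box and 1.53% held an E2F-type motif. Of the 8 genes of the G1 to S list with a window, 2 held an E-box (Cdk4 and Cdk6) and 3 held an E2F-type motif (Cdc25a, Cdk2 and Rbl1). Of the 3 clock genes, Cry1 alone held an E-box, and no window held an E2F-type motif. These are matches of letters and not binding sites.

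Levels are given below as log2 of the deposited intensity, so a difference of 1 is 2-fold. Each array is taken as 1 liver. A probe is called higher or lower where its Benjamini-Hochberg adjusted p over 35979 probes was below 0.05 in a limma fit, two-sided, with n = 5 arrays in each group. Of these probes, 5039 (14.0%) were higher and 4732 (13.2%) were lower at PHx 12 h than at PHx 4 h. A change of at least 2-fold was seen for 626 higher probes (1.74%) and for 1017 lower probes (2.83%), and a change of at least 4-fold for 55 higher and 171 lower probes. Together these calls made up 27.2% of probes, and for 20.2% of probes the 5 arrays at PHx 12 h all lay above or all below the 5 at PHx 4 h. The median log2 fold change over all probes was -0.002, and it was 0.50 over the higher and -0.57 over the lower probes. The array medians were 97.7 to 99.1 intensity units at PHx 12 h and 98.5 to 99.65 at PHx 4 h. Across probes, array pairs had a Pearson correlation of 0.981 to 0.996 within PHx 12 h, 0.992 to 0.996 within PHx 4 h and 0.966 to 0.981 between them. Arrays at PHx 12 h differed more among themselves, with a median SD over probes of 0.138, against 0.103 at PHx 4 h. Replicates 1 and 4 at PHx 12 h stood apart, with scores of -33.1 and 43.8 on the second principal component, which held 11.3% of the variance among the 10 arrays. Without both, 4655 probes were higher and 4263 lower, and no call changed direction. The sources used here do not state in words that the 5 arrays of a group came from separate mice, so p-values measure the spread between these samples, part of which may be technical, and the number of arrays limits the precision of every value.

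**Figure D1:**
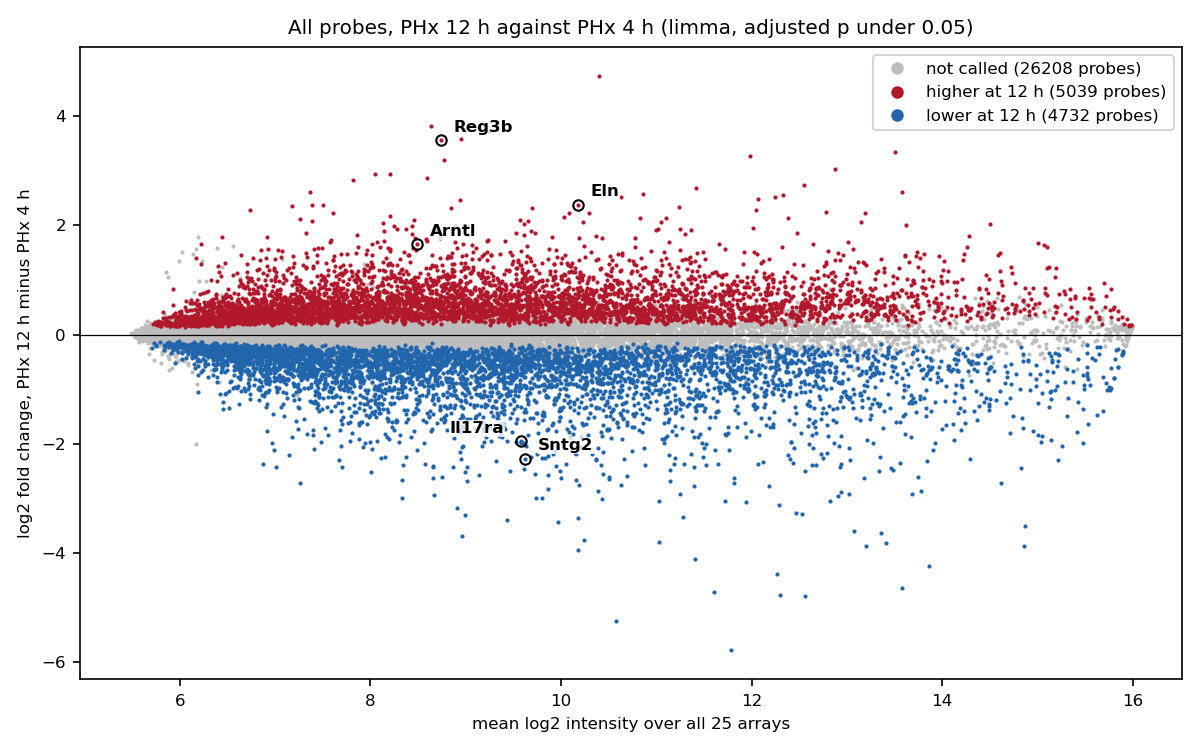
Each point is 1 of 35979 probes, with its mean log2 intensity over all 25 arrays on the x axis and the log2 fold change, PHx 12 h minus PHx 4 h, on the y axis; red probes (5039) were higher and blue probes (4732) lower at PHx 12 h, and grey probes were not called. The lower probes reach further from 0 than the higher ones, to -5.79 against 4.74, and 5 named genes are circled.

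The probes that differed most have no gene name in the sources used here. The probe IVGNm15336 had a mean of 7.89 at PHx 12 h and 13.68 at PHx 4 h, a log2 fold change of -5.79, and IVGNm00707 followed with -5.25. In the other direction, IVGNm06655 had a mean of 13.82 at PHx 12 h and 9.07 at PHx 4 h, a log2 fold change of 4.74, and IVGNm06779 had 3.81. The arrays of both groups were separate at all 4 probes.

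Names were at hand for 1170 genes, all from the study's own list of transcripts that changed on these same arrays. Counts of named genes are therefore not independent evidence of a change. Of them, 194 were higher, 257 were lower and 719 were not called, and 127 of the higher and 144 of the lower genes had arrays that did not overlap between the groups. Among all probes, 14.0% were higher, 13.2% were lower and 20.2% had arrays without overlap. The counts in the gene lists below are to be read beside these shares. A count near them says nothing particular about a list. The study had sorted its transcripts into clusters by their shape over the whole time course. Of 431 probes at hand from cluster 1, 199 were higher and 14 lower (6 to 8 lower without replicate 3 or 5 at PHx 12 h or replicate 1, 2 or 3 at PHx 4 h), with a median log2 fold change of 0.27. Cluster 2 had 31 higher and 190 lower of 562 (median -0.19), and cluster 3 had 34 higher and 235 lower of 720 (median -0.18). The 285 mRNA probes at hand from cluster 4, which are only part of that cluster, were divided, with 50 higher and 44 lower (median -0.13). No rows of the study's other clusters were at hand. The balance of rises and falls among named genes and in the gene lists therefore partly follows from which rows these are. Of the probes at hand, 46.2% of cluster 1 were higher, and 33.8% of cluster 2 and 32.6% of cluster 3 were lower. A list count above the shares of all probes can follow from the clusters its members came from, which was not tested.

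The largest rise among named genes was that of Reg3b, a secreted C-type lectin of the Reg family that is known from injury and inflammation in gut, pancreas and liver. Its levels were 11.61, 12.08, 12.70, 11.89 and 12.004 in the 5 livers at PHx 12 h, against 8.08, 8.23, 8.56, 9.22 and 8.39 at PHx 4 h. Every liver at 12 hours was above every liver at 4 hours, with a difference of 11.8-fold (log2 fold change 3.56 ± 0.37 SE, adjusted p = 4.81e-08). The related antibacterial lectin Reg3g had levels of 10.003, 9.80, 9.33, 7.78 and 9.10 at PHx 12 h, against 6.70, 6.84, 6.68, 7.23 and 6.73 at PHx 4 h. It was higher by 2.37 ± 0.29 (adjusted p = 5.67e-07) without overlap, but replicate 4 at 12 hours, at 7.78, lay closer to the 4 hour livers than to its own group. Reg3b and Reg3g have related sequences, and the probe sequences were not used here, so signal shared between them was not examined. The acute phase protein gene Crp, already among the brightest at both times, was also higher, with means of 15.31 ± 0.22 at PHx 12 h and 14.75 ± 0.22 at PHx 4 h (SD, n = 5 each, adjusted p = 0.00107). Its mean in sham livers was 15.49, above both, so this rise did not exceed the sham level.

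Cxcl1, the chemokine that draws neutrophils, went the other way from these secreted proteins. Its levels were 11.91, 11.59, 11.98, 12.20 and 11.39 at PHx 12 h, against 13.89, 12.94, 12.99, 13.94 and 12.89 at PHx 4 h. It was lower in all 5 livers, by -1.52 ± 0.38 on the log2 scale (adjusted p = 0.00342). Of the 6 genes in the list of secreted defence proteins and chemokines, 3 rose, Cxcl1 fell, and Lbp (log2 fold change 0.43, adjusted p = 0.106) and Leap2 (-0.20, adjusted p = 0.486) were not called. The lipopolysaccharide-binding protein gene Lbp passed the threshold without replicate 1 at PHx 4 h, at 0.55 (adjusted p = 0.0387), and had 0.27 without replicate 2 at PHx 4 h (adjusted p = 0.347).

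Eln, which encodes elastin, the elastic protein of vessel walls and of scar tissue, had levels of 11.56, 12.15, 12.18, 12.17 and 12.18 at PHx 12 h and 9.50, 9.04, 9.48, 10.20 and 10.12 at PHx 4 h. The groups were far apart (5.2-fold higher, log2 fold change 2.38 ± 0.22, adjusted p = 7.42e-09), and replicate 1 at 12 hours was the lowest of its group. Further named genes with a large and separate rise were the Cas adaptor gene Bcar3 (1.49), the kinase gene Dapk2 (1.44) and Gpsm2 (1.36), whose product orients the mitotic spindle. Both probes of Bcar3 were higher.

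**Figure D2:**
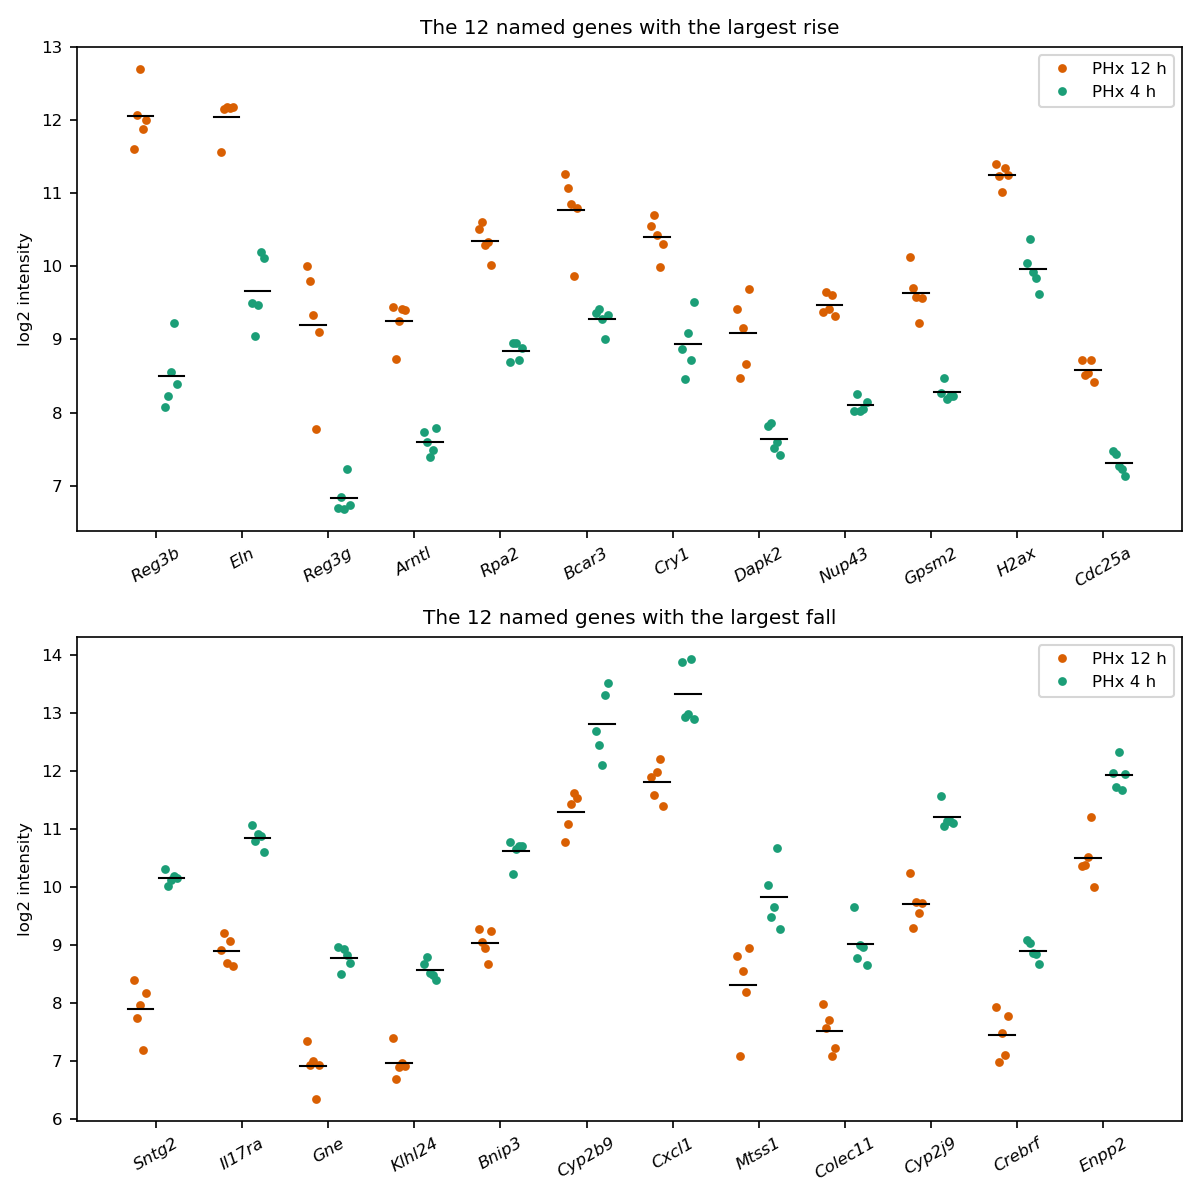
Log2 intensity on each array for the 12 named genes with the largest rise (top) and the 12 with the largest fall (bottom) among those called and without overlap; points are the 5 livers at PHx 12 h (orange, left) and the 5 at PHx 4 h (green, right), and bars are means. Reg3b differs most among the rising genes, and Sntg2 among the falling ones; Reg3g and Bcar3 have 1 liver at 12 hours, replicate 4, that lies nearest to the 4 hour livers.

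Of the 3 clock genes at hand, 2 rose and none fell (0 lower also at an unadjusted p, and 1, Per3, by the methods' t-test after adjustment). Arntl, the activator of the clock, had levels of 9.44, 8.73, 9.26, 9.42 and 9.41 at PHx 12 h and 7.73, 7.60, 7.40, 7.49 and 7.78 at PHx 4 h. All livers at 12 hours were higher, by 1.65 ± 0.19 (adjusted p = 2.41e-07), and replicate 2 was the lowest of them. Cry1, a repressor of the clock and the gene with the E-box shown above, had levels of 10.56, 10.70, 10.43, 9.99 and 10.31 at PHx 12 h and 8.87, 8.47, 9.09, 8.71 and 9.51 at PHx 4 h. It was higher by 1.46 ± 0.17 (adjusted p = 1.54e-07), again without overlap. The levels of Per3 lay among the dimmest 30% of probes in both groups (5.74 ± 0.07 at PHx 12 h, 5.89 ± 0.06 at PHx 4 h), so no fold change is given (adjusted p = 0.439). The 2 groups differ both in the hours since surgery and, if surgery took place at like hours, in the time of day at collection, and these cannot be told apart here. Arntl stood at 7.59 in sham livers, 9.70 at 36 hours and 8.32 at 72 hours, and Cry1 at 9.21, 10.64 and 8.26 in the same order.

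Genes that carry cells from G1 to S phase were mostly higher at PHx 12 h. Of the 9 measured, 6 rose, E2f1 fell, and Ccne2 and Cdkn1b were not called, with a median log2 fold change of 0.57. Cdk4, a kinase partner of cyclin D, had levels of 12.56, 13.22, 12.72, 12.97 and 12.80 at PHx 12 h, against 11.85, 11.71, 11.79, 11.83 and 11.75 at PHx 4 h. The groups lay far apart beside the narrow range at 4 hours, and the rise was 2.1-fold (1.07 ± 0.10, adjusted p = 5.54e-09). Cdc25a, the phosphatase that activates Cdk2, had levels of 8.72, 8.52, 8.54, 8.72 and 8.41 at PHx 12 h and 7.47, 7.43, 7.27, 7.23 and 7.14 at PHx 4 h. It was higher by 1.27 ± 0.10 (adjusted p = 7.41e-10), and both of its probes were called.

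Skp2, part of the ubiquitin ligase that removes the Cdk inhibitor p27, rose by 0.81 (adjusted p = 6.54e-06), whereas the gene of p27 itself, Cdkn1b, had 8.64 ± 0.34 at PHx 12 h and 8.82 ± 0.25 at PHx 4 h (adjusted p = 0.468). The pocket protein gene Rbl1 (p107) rose by 0.79 (adjusted p = 3.8e-05), Cdk2 by 0.57 (adjusted p = 0.000111) and Cdk6 by 0.49 (adjusted p = 0.00139). Cyclin E2, encoded by Ccne2, was at 7.34 ± 0.43 at PHx 12 h and 7.10 ± 0.18 at PHx 4 h (adjusted p = 0.479), and at 11.30 at 36 hours.

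E2f1 was the exception among these genes. Its levels were 6.76, 6.43, 6.20, 5.99 and 6.35 at PHx 12 h, against 7.15, 7.26, 7.19, 6.87 and 7.03 at PHx 4 h. All 5 livers at 12 hours were lower, by -0.75 ± 0.16 on the log2 scale (adjusted p = 0.000904). Replicate 4 at 12 hours lay below 6.09, the level below which a group mean is treated as dim here. The size of this fall is therefore uncertain. The mean of E2f1 in sham livers was 6.83, and at 36 hours it was 9.86.

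Within DNA synthesis, 6 of 18 measured genes rose and none fell (median 0.29), with 1 lower at an unadjusted p, by the methods' t-test after adjustment and without replicate 1 at PHx 12 h. Rpa2, Pold3 and Pold1 stood out, all of them acting at the replication fork. Rpa2, a subunit of the protein that coats single-stranded DNA, had levels of 10.51, 10.60, 10.29, 10.33 and 10.02 at PHx 12 h and 8.69, 8.95, 8.95, 8.72 and 8.88 at PHx 4 h. It was 2.85-fold higher without overlap (1.51 ± 0.12, adjusted p = 4.9e-10). Pold3, an accessory subunit of DNA polymerase delta, had levels of 9.01, 9.44, 9.14, 9.46 and 9.15 at PHx 12 h and 8.21, 7.68, 8.12, 8.08 and 8.18 at PHx 4 h. Pold1, its catalytic subunit, had levels of 7.49, 7.74, 7.57, 7.58 and 7.76 at PHx 12 h and 6.60, 6.76, 6.82, 6.77 and 6.65 at PHx 4 h. Both subunits were higher in every liver at 12 hours, Pold3 by 1.19 ± 0.11 (adjusted p = 5.2e-09) and Pold1 by 0.91 ± 0.10 (adjusted p = 1.9e-07). Smaller rises were those of Rrm1, a subunit of ribonucleotide reductase (0.41), the clamp loader gene Rfc1 (0.40) and the polymerase epsilon subunit gene Pole2 (0.39). The call of Rrm1 was lost without replicates 1 and 4 at PHx 12 h, at 0.36 (adjusted p = 0.0556). H2ax, which encodes the histone variant that marks DNA breaks, rose by 1.29 ± 0.16, with 11.25 ± 0.14 at PHx 12 h and 9.96 ± 0.28 at PHx 4 h (adjusted p = 8.14e-07).

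Origin licensing and firing, the loading and activation of the MCM helicase, was divided. Of 15 measured genes, 4 rose, 2 fell and 9 were not called (median 0.13). Of all probes, 14.0% were higher and 13.2% lower, so the falls were near that share. The risers were Cdt1 (0.60), which helps to load the helicase, Gins3 (0.60), Mcm2 (0.48) and the origin recognition subunit gene Orc5 (0.41). Without replicates 1 and 4 at PHx 12 h, Cdt1 had 0.53 (adjusted p = 0.0538). Mcm6 had levels of 6.39, 6.73, 6.03, 6.07 and 5.95 at PHx 12 h, against 7.06, 7.52, 6.88, 6.90 and 6.88 at PHx 4 h. It was lower in all 5 livers (-0.81 ± 0.21, adjusted p = 0.00392), and replicate 2 at 4 hours was well above the rest of its group. Replicates 3, 4 and 5 at 12 hours lay below 6.09, the level below which a group mean is treated as dim here. The size of the fall of Mcm6 is therefore uncertain. The 6 MCM subunits form 1 ring, but Mcm2 rose, Mcm6 fell, and Mcm3 (0.23), Mcm4 (0.13), Mcm5 (-0.28) and Mcm7 (0.27) were not called, with adjusted p of 0.119 to 0.57. Mcm7 passed without replicate 2 at PHx 4 h, at 0.35 (adjusted p = 0.0437). Gins1, which joins Gins3 in the complex that activates the helicase, fell by 0.73 on the log2 scale (adjusted p = 1.34e-05).

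Most genes of mitosis had lower means at PHx 12 h, but few were called. In limma, 0 of 39 measured members were called higher (0 also at an unadjusted p below 0.05, and 1 by the methods' t-test after adjustment and in the fit to the 10 arrays alone) and 3 were called lower, against 13.2% of all probes, with a median of -0.34, and 36 of the 39 had a negative log2 fold change. Pttg1, which encodes securin, the inhibitor of chromatid separation, had levels of 8.92, 8.34, 8.08, 8.12 and 8.31 at PHx 12 h and 9.62, 9.41, 9.68, 9.50 and 9.23 at PHx 4 h. It was lower in every liver (-1.13 ± 0.22, adjusted p = 0.000283). Aspm (-0.43, adjusted p = 0.049) and the centrosomal kinase gene Nek2 (-0.36, adjusted p = 0.0296) overlapped between the groups. The call of Aspm was lost without any 1 of the 10 arrays except replicate 2 at PHx 12 h (adjusted p up to 0.128), and that of Nek2 without replicate 3, 4 or 5 at PHx 12 h or replicate 1, 2 or 3 at PHx 4 h (adjusted p up to 0.0931). The main mitotic cyclin gene Ccnb1 had 6.23 ± 0.48 at PHx 12 h and 6.83 ± 0.34 at PHx 4 h (adjusted p = 0.278), and Aurkb had 6.75 ± 0.26 at PHx 12 h and 7.08 ± 0.20 at PHx 4 h (adjusted p = 0.399).

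The mitosis genes varied together between livers of 1 group. Replicate 1 was the highest of the 12 hour arrays for 24 of the 39 genes, and replicate 2 was the highest of the 4 hour arrays for 33. The mean over the list was 7.01, 6.86, 6.49, 6.57 and 6.51 on the arrays at PHx 12 h, against 7.06, 7.27, 7.01, 6.90 and 6.85 at PHx 4 h, so the groups overlapped. Leaving out replicate 1 at PHx 12 h raised the number of lower genes to 6, and leaving out replicate 3, 4 or 5 at PHx 12 h or replicate 1, 2 or 3 at PHx 4 h reduced it to 1. The count of lower genes depended on the estimate of the spread, with 16 when only the 10 arrays were fitted, 10 by the methods' t-test after adjustment and 9 in limma at an unadjusted p below 0.05. Many of these levels were low at both times, and the next time shows their range: Aurkb reached 10.68 at 36 hours.

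**Figure D3:**
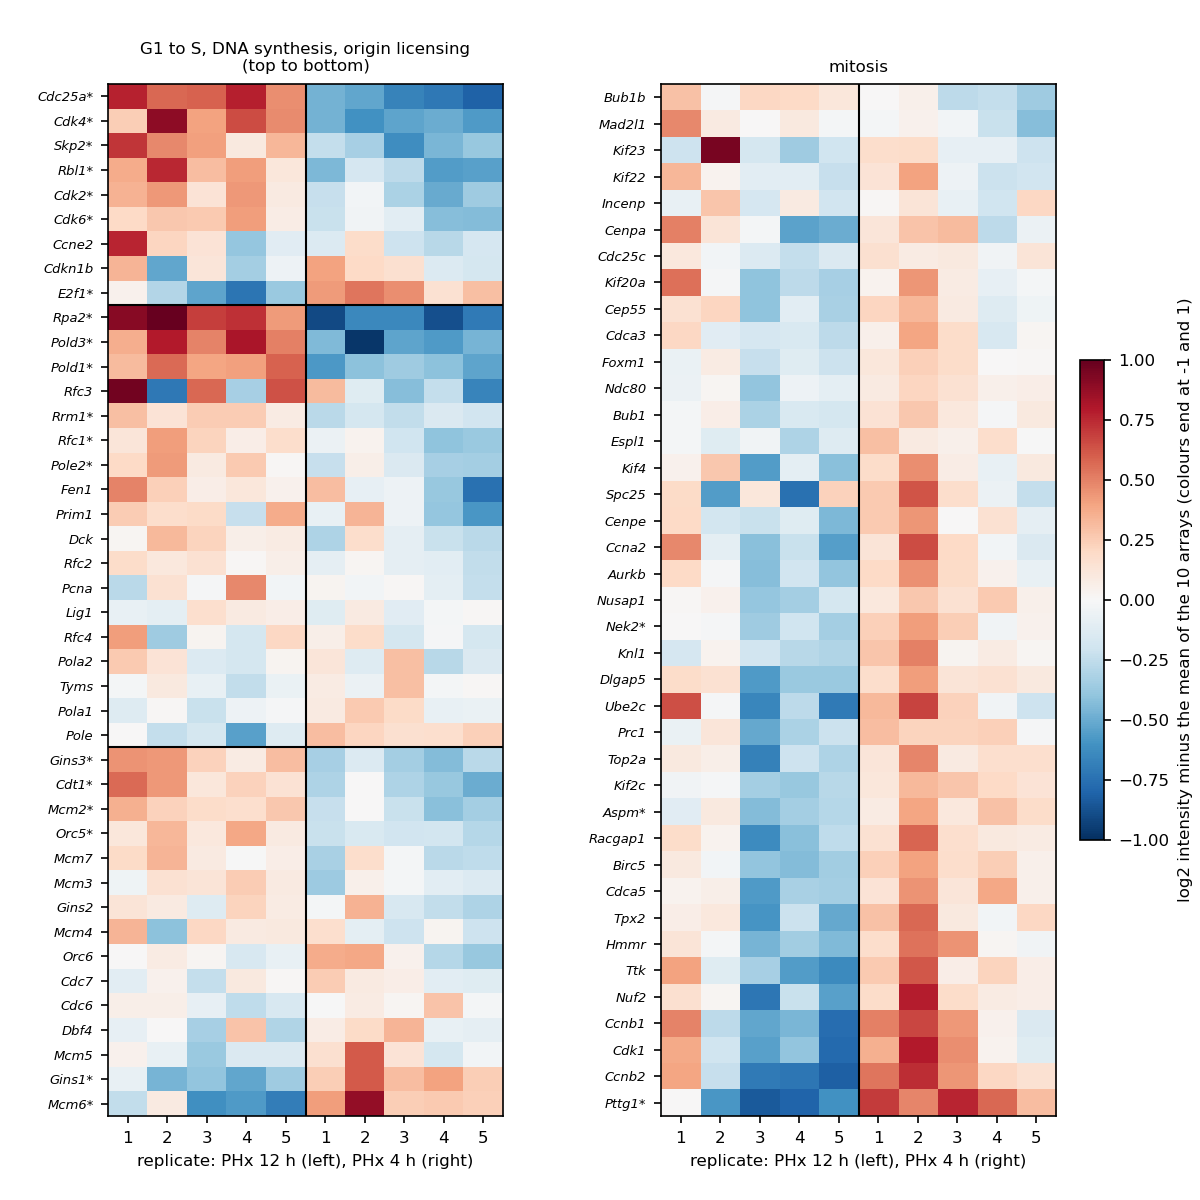
Log2 intensity of each cell cycle gene minus its mean over the 10 arrays, with the 5 livers at PHx 12 h left and the 5 at PHx 4 h right of the line; the left panel holds the G1 to S, DNA synthesis and origin licensing lists and the right panel the mitosis list, and an asterisk marks a called gene. Cdc25a, Cdk4 and Rpa2 are red in all livers at 12 hours, E2f1 and Mcm6 are red at 4 hours, and most mitosis genes are reddest in replicate 2 at 4 hours.

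Chaperone and nuclear transport genes had rises and no falls, in limma, at an unadjusted p and by the methods' t-test (0 lower each). Hsp90ab1, Ahsa1, Stip1, Nup43, Xpo1 and Nxt1, named below, all came from cluster 1, where 46.2% of probes were higher and 3.25% lower. Of 5 heat shock chaperone and cochaperone genes, 3 rose and none fell (median 0.43). Hsp90ab1, the constitutive form of the chaperone Hsp90 and one of the brightest probes, had levels of 14.62, 14.95, 14.87, 15.19 and 15.24 at PHx 12 h and 13.90, 13.88, 13.85, 13.80 and 14.32 at PHx 4 h. It was 2.03-fold higher without overlap (1.02 ± 0.12, adjusted p = 1.5e-07). Its activator Ahsa1 rose by 0.56 (adjusted p = 9.66e-07) and its cochaperone Stip1 by 0.43 (adjusted p = 0.003), the second with overlap.

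Of the 11 nuclear pore and transport genes, 5 rose and none fell (median 0.32). Nup43, a subunit of the pore scaffold, had levels of 9.37, 9.64, 9.41, 9.61 and 9.32 at PHx 12 h and 8.03, 8.26, 8.02, 8.05 and 8.14 at PHx 4 h, a separate rise of 1.37 ± 0.12 (adjusted p = 1.79e-09). Xpo1, the exporter of proteins with a nuclear export signal, rose by 0.93 (adjusted p = 1.66e-08), and the mRNA export factor gene Nxt1 by 0.46 (adjusted p = 0.00177). Splicing genes had 6 higher and 1 lower of 22 (median 0.06), led by Nono (0.69, adjusted p = 1.87e-09). Without replicate 4 at PHx 12 h, splicing genes had 4 higher and 3 lower, and single omissions of other arrays left 0 to 2 lower. Nucleolar and ribosomal processing genes were divided, with 4 higher and 3 lower of 17 (median 0.01), and Rpp30, a subunit of ribonuclease P, rose by 0.79 (adjusted p = 2.63e-08). Chromatin genes had 4 higher and 3 lower of 15 (median 0.14), with 1 lower without replicate 3 at PHx 12 h or without replicate 2 or 3 at PHx 4 h.

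The lists of receptors and signalling genes had more falls than rises with all arrays. Il17ra, the receptor chain for interleukin 17, had levels of 8.91, 9.21, 8.70, 9.06 and 8.63 at PHx 12 h and 11.07, 10.80, 10.91, 10.88 and 10.61 at PHx 4 h. It was lower by -1.95 ± 0.11 (adjusted p = 3.36e-12), a difference of 3.87-fold with a wide gap between the groups. The death receptor kinase gene Ripk1 fell by 0.76 on the log2 scale (adjusted p = 6.99e-06), while Traf5 rose by 0.66 (adjusted p = 0.000141) and Traf4 by 0.49 (adjusted p = 0.0168), 2 adaptors of the same family. The call of Traf4 was lost without replicate 4 at PHx 12 h (0.36, adjusted p = 0.0702) and without replicate 2 at PHx 4 h (0.38, adjusted p = 0.0668). Over cytokine and death receptor signalling, 2 of 11 rose and 4 fell (median -0.12). The falls were 2 without replicate 1 at PHx 12 h or replicate 2 at PHx 4 h, in the fit to the 10 arrays alone and by the methods' t-test after adjustment, and the rises were 1 without replicate 4 at PHx 12 h or replicate 2 at PHx 4 h and by the methods' t-test.

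All 8 growth factor receptors and ligands measured had negative values and 4 were called lower (median -0.28), against 1 by the methods' t-test after adjustment. These were Tgfbr3 (betaglycan, -0.57, adjusted p = 0.000412), Met, the receptor of hepatocyte growth factor (-0.48, adjusted p = 0.0115), Bmpr2 (-0.28, adjusted p = 0.00584) and Acvr1 (-0.32, adjusted p = 0.0434). The arrays of Met, Bmpr2 and Acvr1 overlapped between the groups. The call of Acvr1 was lost whenever an array was left out other than replicate 1 at PHx 12 h, down to -0.22 without replicate 4 at PHx 12 h (adjusted p = 0.167).

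Intracellular growth signalling had 1 higher and 6 lower of 12 genes (median -0.22). Gsk3b, the kinase that restrains beta-catenin and cyclin D1, had 8.24 ± 0.16 at PHx 12 h and 9.13 ± 0.37 at PHx 4 h (-0.89, adjusted p = 5e-06). Map4k5 (-0.56, adjusted p = 4.28e-05) and the guanine nucleotide exchange factor gene Sos1 (-0.51, adjusted p = 0.000641) were also lower.

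Ubiquitin ligases had 6 lower and none higher of 10 (median -0.30, with 1 higher at an unadjusted p and 0 by the methods' t-test), among them Itch (-0.61, adjusted p = 1.82e-05), the related Wwp1 (-0.63, adjusted p = 0.0145) and the muscle atrophy gene Fbxo32 (-0.32, adjusted p = 0.002). In the interferon and antigen presentation list, 1 of 11 rose and 4 fell (median -0.22). The riser was Tap1, the peptide transporter for antigen presentation, with 9.47 ± 0.24 at PHx 12 h and 8.49 ± 0.09 at PHx 4 h (0.98, adjusted p = 7.57e-08), whereas the interferon-induced chemokine gene Cxcl10 fell by 0.50 on the log2 scale (adjusted p = 0.00281).

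Genes for drug and steroid metabolism were mostly lower, with 6 of 8 lower, none higher (0 also at an unadjusted p and by the methods' t-test) and a median of -0.81, the lowest of the lists with at least 5 members. Cyp2b9, a cytochrome P450, had levels of 10.77, 11.08, 11.43, 11.63 and 11.54 at PHx 12 h and 12.69, 12.46, 12.10, 13.32 and 13.52 at PHx 4 h. It was 2.88-fold lower (-1.53 ± 0.24, adjusted p = 1.72e-05). Cyp2j9 had levels of 10.24, 9.30, 9.74, 9.55 and 9.72 at PHx 12 h and 11.57, 11.06, 11.15, 11.14 and 11.11 at PHx 4 h. It fell by 1.49 on the log2 scale (adjusted p = 1.72e-08), with replicate 1 the highest at both times. Cyp2c50, among the brightest genes of the liver, had levels of 14.18, 13.998, 14.29, 14.29 and 14.61 at PHx 12 h and 15.51, 14.96, 15.16, 15.43 and 15.50 at PHx 4 h. It was also lower in all livers (-1.04 ± 0.12, adjusted p = 3.42e-07). Cyp2c38 (-0.85, adjusted p = 0.00356) and Hsd11b1, which regenerates active glucocorticoid (-0.70, adjusted p = 0.000871), were lower as well. The P450 genes of 1 subfamily are close in sequence, and signal shared between their probes was not examined.

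Other hepatocyte functions moved less uniformly. In amino acid and glucose metabolism, 4 of 9 fell and 1 rose (median -0.16; 2 lower and 0 higher in the fit to the 10 arrays alone and by the methods' t-test), led by the propionate and branched-chain amino acid genes Aldh6a1 (-1.11, adjusted p = 0.00569) and Pcca (-0.98, adjusted p = 4.56e-07). Only Acad10 (-0.58, adjusted p = 0.00164) was called among 7 genes of fatty acid oxidation (median -0.05). The single rise in amino acid and glucose metabolism was lost without replicate 1, 3 or 5 at PHx 12 h or replicate 2, 3 or 4 at PHx 4 h. Fatty acid and sterol synthesis had 1 higher and 1 lower of 5 (median -0.16), of which the fall was lost without replicate 3, 4 or 5 at PHx 12 h or replicate 2 at PHx 4 h. Peroxisome genes had 1 lower of 5 (median -0.08; 1 higher too without replicate 4 at PHx 12 h or replicate 1 at PHx 4 h), and mitochondrial genes 1 higher and 2 lower of 9 (median -0.23). Of 3 coagulation genes, F9 was lower (-0.62, adjusted p = 0.0351), and its call was lost without replicate 1, 2 or 4 at PHx 12 h or replicate 1, 2 or 4 at PHx 4 h (adjusted p up to 0.1003).

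Endoplasmic reticulum and Golgi genes had 1 higher and 2 lower of 13 (median -0.01). The lower ones were Atf6, a sensor of unfolded proteins (-0.85, adjusted p = 6.46e-06), and the translocation gene Sec63 (-0.66, adjusted p = 1e-06). Srp68, a subunit of the signal recognition particle, was higher with overlap (0.47, adjusted p = 0.00624), and without replicates 1 and 4 at PHx 12 h it had 0.31 (adjusted p = 0.115). Among 10 stress response genes, 1 rose and 3 fell (median -0.23), with 2 rises without replicate 5 at PHx 12 h. Nqo1, a target of the oxidative stress regulator Nrf2, had levels of 8.35, 8.10, 8.04, 8.36 and 8.37 at PHx 12 h and 9.28, 9.20, 9.22, 9.37 and 9.34 at PHx 4 h. It was lower in all livers (-1.03 ± 0.13, adjusted p = 6.86e-07), while Nfe2l2, the gene of Nrf2, rose by 0.50 (adjusted p = 0.00252). The amino acid transporter gene Slc1a4 fell by 0.98 on the log2 scale (adjusted p = 1.38e-05), to 7.51 ± 0.22 at PHx 12 h, against 8.49 ± 0.21 at PHx 4 h.

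**Figure D4:**
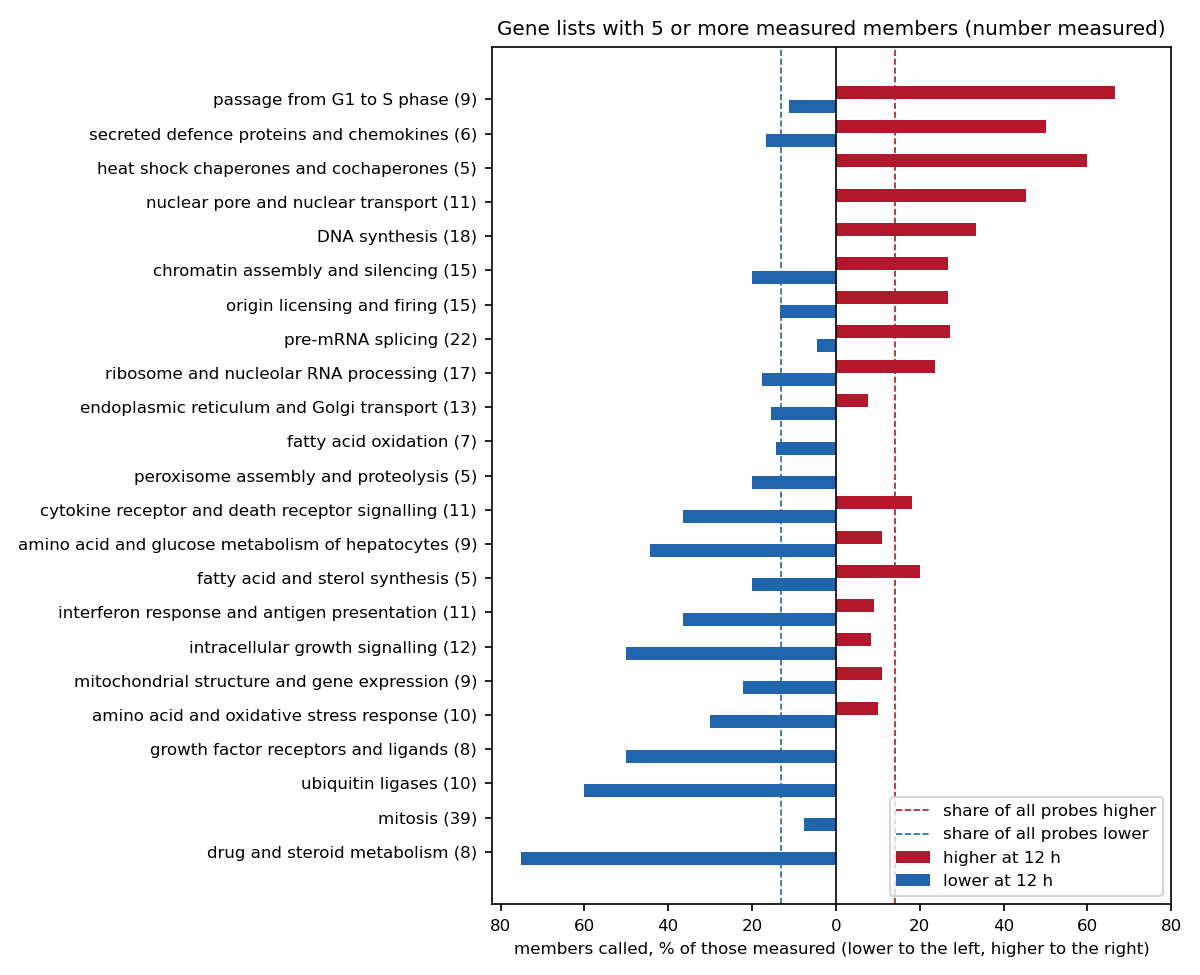
For each gene list with at least 5 measured members (number in parentheses), the red bar is the share called higher and the blue bar the share called lower at PHx 12 h, in % of measured members; dashed lines mark the shares of all probes, 14.0% higher and 13.2% lower. The lists run by median log2 fold change, with G1 to S at the top (0.57) and drug and steroid metabolism at the bottom (-0.81). List members come from the study's own list of changed transcripts, so the shares of all probes are not their base rate.

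The named gene with the largest fall was Sntg2, which encodes gamma 2 syntrophin, an adaptor of the dystrophin complex. It had levels of 8.40, 7.73, 7.95, 7.18 and 8.17 at PHx 12 h and 10.31, 10.02, 10.13, 10.20 and 10.16 at PHx 4 h. The groups were 4.85-fold apart (-2.28 ± 0.15, adjusted p = 2.4e-11), and the livers at 4 hours differed little from each other. Gne, the first enzyme of sialic acid synthesis, had levels of 7.35, 6.93, 7.002, 6.34 and 6.92 at PHx 12 h and 8.96, 8.50, 8.93, 8.83 and 8.68 at PHx 4 h. It was lower by -1.87 ± 0.18 (adjusted p = 1.14e-08), with replicate 4 the lowest at 12 hours. Bnip3, a receptor for the removal of mitochondria, fell by 1.58 on the log2 scale (adjusted p = 6.55e-11) and Klhl24 by 1.60 on the log2 scale (adjusted p = 7.71e-10). Further falls without overlap were those of Mtss1 (-1.51), Crebrf (-1.45) and Enpp2, the gene of autotaxin (-1.43).

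Markers of other cell types in the liver moved only in part. Of 3 genes that mark stellate cells and fibroblasts, 2 fell (median -0.98). Col14a1, a collagen, had levels of 9.31, 9.21, 9.24, 8.97 and 8.93 at PHx 12 h and 10.21, 10.03, 10.08, 10.19 and 10.07 at PHx 4 h. Colec11, a collectin, had levels of 7.98, 7.56, 7.70, 7.09 and 7.22 at PHx 12 h and 9.65, 8.77, 9.003, 8.96 and 8.66 at PHx 4 h. Both were lower in every liver (Col14a1 -0.98, adjusted p = 3.92e-10; Colec11 -1.50, adjusted p = 5.42e-08), and the summed intensity of the list was 842 to 1172 at PHx 12 h, against 1742 to 2282 at PHx 4 h. Eln, which fibroblasts and smooth muscle cells make, went the other way.

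Of 5 endothelial markers, Clec1b (-0.40, adjusted p = 0.003) and Calcrl (-0.33, adjusted p = 0.0175) fell and 3 were not called. The list had a median of -0.09 and values up to 0.32. Its summed intensity was 1105 to 1299 at PHx 12 h and 1414 to 1558 at PHx 4 h. Much of that sum came from Clec1b, with means of 9.55 at PHx 12 h and 9.95 at PHx 4 h. The call of Calcrl was lost without replicate 5 at PHx 12 h (-0.27, adjusted p = 0.0654). None of 3 macrophage, 2 lymphocyte and 1 cholangiocyte markers was called (1 macrophage and 1 cholangiocyte marker were lower at an unadjusted p, and single omissions of replicate 1, 3 or 4 at PHx 12 h or replicate 2 at PHx 4 h gave 1 call in 1 of these lists), and their summed intensities overlapped between the groups. The array means over the 2 lymphocyte markers were 5.96 to 6.53 at PHx 12 h and 6.11 to 6.26 at PHx 4 h. These lie near the dim level of 6.09, so the lack of a call says little about lymphocytes. Of 6 hepatocyte markers, Crp rose, F9, Cyp2c50 and Cyp2b9 fell, and Arg1 (14.57 at PHx 12 h, 14.50 at PHx 4 h) and F2 (15.78 at PHx 12 h, 15.68 at PHx 4 h) were not called. The part of these marker changes in the other results was not tested.

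Among 224 putative lncRNA probes, 18 were higher and 59 lower (median -0.14), against 294 higher and 401 lower of the 1719 mRNA probes at hand. The study had again picked these probes for change on these arrays. Of all probes, 14.0% were higher and 13.2% lower. The rows at hand come from clusters 1 to 4 only, with 30 putative lncRNA probes in cluster 1, 91 in cluster 2 and 110 in cluster 3. The rows at hand from cluster 4, which the paper describes as upregulated, were mRNA probes, so its putative lncRNAs are missing from these counts. The paper describes clusters 2 and 3 as downregulated, so the excess of falls partly follows from the rows at hand. 5730408K05Rik had the largest separate rise, with levels of 9.97, 10.69, 10.17, 10.79 and 10.22 at PHx 12 h and 9.26, 9.55, 9.40, 9.34 and 9.01 at PHx 4 h (1.06, adjusted p = 4.8e-06). Snhg14, a long host transcript of small nucleolar RNAs, rose by 0.79 (adjusted p = 2.17e-05). Of the lower ones, AK011144, a transcript listed at the Nrp1 gene, fell by 1.11 on the log2 scale (adjusted p = 0.000931) and 2210408F21Rik by 1.10 on the log2 scale (adjusted p = 1.01e-06).

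2810408I11Rik, the lncRNA that the study named LncPHx2, had levels of 9.32, 8.15, 8.80, 7.51 and 8.57 at PHx 12 h and 8.15, 7.56, 8.25, 7.97 and 8.18 at PHx 4 h. The groups overlapped (0.45 ± 0.24, adjusted p = 0.194), and the arrays at 12 hours held both the lowest of all 10 livers (replicate 4) and the highest (replicate 1). The log2 fold change was 0.69 without that replicate 4 (adjusted p = 0.0146) and 0.23 without that replicate 1 (adjusted p = 0.528). Malat1, an abundant nuclear lncRNA, had 6 probes with log2 fold changes of -0.62 to -0.18, of which 1 (-0.54, adjusted p = 0.0011) was called.

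The levels at the other times place these differences in the time course. The comparisons of neighbouring times share arrays, so only the levels are given. Reg3b stood at 6.51 in sham livers, 8.50 at 4 hours, 12.05 at 12 hours, 10.70 at 36 hours and 5.95 at 72 hours, with its highest mean at 12 hours. Rpa2 stood at 9.22 in sham livers, 8.84 at 4 hours, 10.35 at 12 hours, 12.32 at 36 hours and 10.84 at 72 hours, so that its highest mean came after 12 hours. Bcar3 stood at 10.66 in sham livers, 9.28 at 4 hours and 10.77 at 12 hours, with the lowest mean of the 5 groups at 4 hours. Many other risers also had a lower mean at 4 hours than in sham livers, so their rise included a return towards the sham level. Besides the genes given next, they included Cdc25a, Cdk4, Skp2, Pold3, Xpo1 and Traf5. In the order sham, 4 hours and 12 hours, these means were 9.28, 8.49 and 9.47 for Tap1 and 9.02, 8.33 and 8.82 for Traf4. They were 10.94, 10.31 and 10.78 for Srp68 and 9.27, 8.87 and 9.27 for Rfc1. For Gpsm2 they were 9.19, 8.28 and 9.64, for H2ax 10.72, 9.96 and 11.25, and for Dapk2 8.28, 7.64 and 9.08. Nup43 had 8.59, 8.10 and 9.47, and Orc5 had 10.92, 10.61 and 11.03. In contrast, Reg3g, Cdk2, Mcm2, Pold1, Rrm1 and Pole2 were risers whose mean at 4 hours was not below that of sham livers.

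A second kind of course had its lowest mean at 12 hours. Cyp2c50 stood at 15.92 in sham livers, 15.31 at 4 hours, 14.27 at 12 hours, 15.11 at 36 hours and 15.11 at 72 hours. Slc1a4 stood at 7.66 in sham livers, 8.49 at 4 hours, 7.51 at 12 hours, 11.16 at 36 hours and 10.60 at 72 hours. Its level at 12 hours was near that of sham livers, whereas Il17ra stayed low after 12 hours (8.44 at 36 hours, 8.63 at 72 hours, 11.05 in sham livers).

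**Figure D5:**
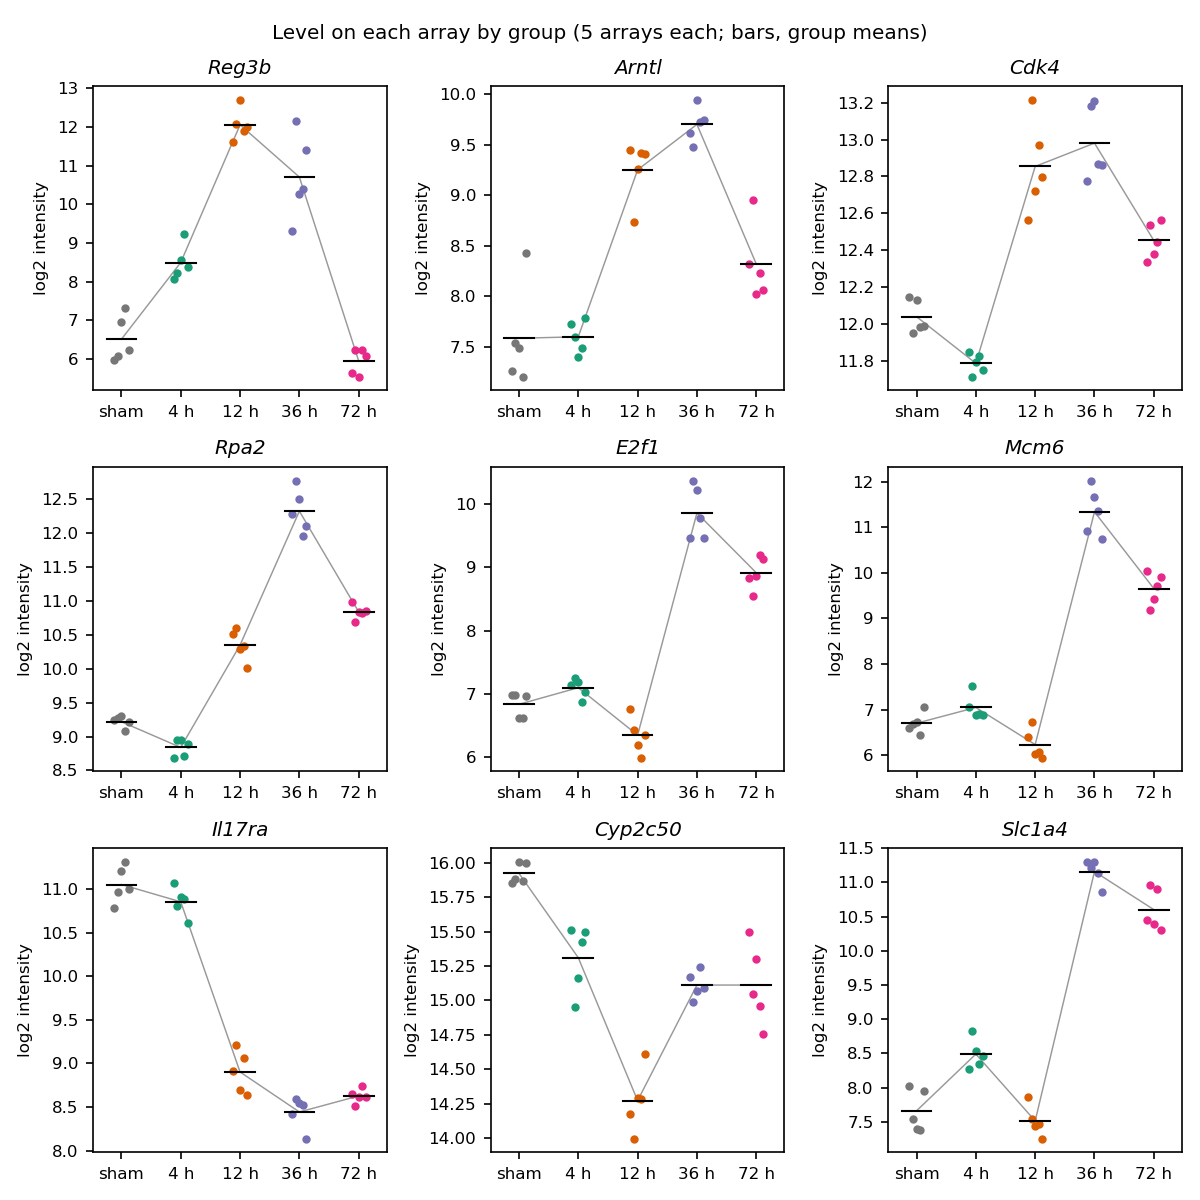
Log2 intensity of 9 genes on all 25 arrays, in sham livers and at the times 4 h, 12 h, 36 h and 72 h (5 points per group; bars are group means joined by a line). Reg3b has its highest mean at 12 hours (12.05), E2f1 and Mcm6 have their lowest there (6.35 and 6.23, near the dim level of 6.09), and Il17ra is low from 12 hours on.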

How the data were processed

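Groups (5 arrays at PHx 12 h and 5 at PHx 4 h) and replicate numbers came from the sample titles. The deposited table gives the intensity of every probe on a linear scale, which the authors had already brought to like medians on all arrays. The methods name the vsn package, but these values are not on its scale. Intensities were therefore only taken to log2, without normalization, background correction or filter. No detection flags are given, and a group mean below the 30th percentile of probe means (6.09) was treated as dim. The means at PHx 12 h of Cxcl10 (6.16), Wwp1 (6.17), Aspm (6.20), Mcm6 (6.23) and E2f1 (6.35) lay close above this level. Both groups were compared within a limma fit (version 3.58.1 in R 4.3.3, lmFit, contrasts.fit and eBayes) that held a mean for each of the 5 groups over all 25 arrays. It covered 35979 probes, as 2 were blank throughout. P-values were adjusted by the Benjamini-Hochberg method, with a threshold of 0.05. Python 3.11.15 with pandas 2.3.3 and matplotlib 3.10.9 served for tables and plots. Simulated arrays with known changes at some of 35979 probes, made for PHx 12 h against PHx 4 h, were used to test the fit, which recovered 13 of 50 changes of 1.2-fold, 39 of 50 of 1.5-fold, 50 of 50 of 2-fold and 49 of 50 of 4-fold, and called 6 unchanged probes. Far fewer probes were changed there than differ on the real arrays.

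Names came from 1998 rows at hand of the study's list of changed transcripts, which cover 1943 probes (1719 mRNAs and 224 putative lncRNAs). These rows belong to clusters 1 to 4, with cluster 4 covered only in part, and the other 2119 rows were not used here. RefSeq gene tables gave a current symbol for 1383 probes. Of several mRNA probes for a gene, the brightest stands for it. Among 84 such genes, 13 had probes of unlike sign and 0 had probes called in opposite directions. The text names, as far as they bear on the results, the 12 largest rises and falls without overlap, up to 4 members of a list by smallest p together with members called against their list, the 5 largest rises and falls among putative lncRNAs, and genes that the paper names. Lbp, Leap2, Cdk2, Cdk6, Ccne2, Cdkn1b, Cdt1, Rrm1, Pole2, Wwp1 and Cyp2c38 fall outside this rule and were added after their values were seen, as were the 4 promoters shown. Some genes that count in the lists are not reported here by name. Members and gene lists were chosen with earlier results of these data known. Alternatives covered normalization, centring, scale, background, dim probes, variance model, arrays in the fit, a replicate block, the methods' t-test and single arrays.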

Additional observations from a re-analysis of the deposited data

Results flagged for a closer look

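In each group of 5 arrays, the highest or lowest value was set against the others for the 100 genes with values in the report, and 12 of 200 groups had 1 array further off than Dixon's critical value of 0.71 allows. Chance alone gives about 10 such groups. At PHx 12 h, these were Eln, lowest at 11.56 (next 12.15), and Arntl, lowest at 8.73 (next 9.26). The high arrays at PHx 4 h were those of Mcm6 at 7.52, Hsp90ab1 at 14.32, Gpsm2 at 8.48, Cyp2j9 at 11.57, Cyp2c38 at 13.21, Snhg14 at 7.73 and AK011144 at 10.71. The low arrays at PHx 4 h were those of Pold3 at 7.68, Nxt1 at 9.06 and Bnip3 at 10.23. All 12 genes kept their direction and their call without any 1 of the 10 arrays.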

How the results depend on the processing

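The number of higher probes lay between 4301 and 6178 and that of lower probes between 4170 and 6114 over all alternatives run, against 5039 and 4732 in the report, and 79.4% to 98.8% of the reported calls were kept, with 0 reversed. The extremes came from the methods' t-test, with 4301 higher and 4170 lower probes after adjustment and 6178 higher and 6114 lower at an unadjusted p. Leaving out single arrays gave 4628 to 5085 higher and 4270 to 4732 lower probes. Quantile normalization gave 5383 higher and 4478 lower probes, a higher share of 54.6%, against 51.6% in the report. The replicate numbers of the titles are not said to pair livers, and arrays with the same number did not deviate together (correlations of -0.11 to 0.04, with 0 of 5 arrays at PHx 12 h closest to their own number); a replicate block gave 4971 higher and 4707 lower probes and lost the call of Aspm (adjusted p = 0.0618). None of the 100 genes with values in the report changed direction under any alternative. Beyond the calls named in the report as resting on single arrays, the generalised log lost Nek2 (adjusted p = 0.071), Aspm and Wwp1 (0.0522), quantile normalization lost Acvr1 and F9, the fit to the 10 arrays alone lost Acvr1 and Srp68, and the methods' t-test after adjustment lost Stip1, Traf4, Met, Bmpr2, Acvr1 and Srp68 and gained Per3 (0.0318). Median centring and normexp lost Aspm (0.0527 and 0.0663), and the trended, robust variance model lost Acvr1 (0.0512). The causes were not tested. Leaving out arrays 1 and 4 at PHx 12 h was chosen after seeing the data.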
